A study of Cenchrus americanus with 9 samples.

Results

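A set of 104 genes of the pearl millet root transcriptome was followed here, out of 19754 genes measured, because their normalised counts were high and nearly level across primary, crown and lateral roots. The members were chosen by their measured values: a mean of at least 3000 over the 9 root libraries, a highest value no more than 25% above the lowest, and a mean outside the 100 highest of the table. Since every one of the 9 values entered this choice, levels, spread and root type differences of the members are given as a description, with no test. All libraries share the genotype Tift23DB, the plant age of 15 days and the growth system, rhizotrons, which are flat soil-filled boxes with a transparent side. There were 3 libraries of primary root tips and 3 of crown root tips, both cut as the last 5 cm of the root, and 3 of lateral roots borne on primary roots, for which no apex length is given. Each library was made from the roots of 3 plants pooled before extraction, so the spread between libraries is that between pools and not between plants. There was no treatment, so the steadiness described is across root types of 1 genotype at 1 age.

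A reference gene is a transcript taken as constant so that other transcripts can be measured against it, as in quantitative PCR, where its level stands in for the amount of RNA loaded. Its own variation passes into every value divided by it, so reference genes are usually sought at a level near that of the targets and used as the geometric mean of several. In cereals the primary root grows from the embryo, crown roots arise from the stem base, and lateral roots branch from existing roots. A gene that is level in all of them could serve for comparisons between these root types, here only in the parts sampled. The deposited table gives locus identifiers that it does not pair with gene names, so the products of the members, and the place among them of commonly used reference families such as actin, tubulin or elongation factor genes, were not analysed here. The root identity of the libraries could not be checked against marker genes for the same reason.

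Depth was similar in scale across libraries. Counts recovered from the table, as the whole multiples of the smallest step in each library, summed to between 39739052 and 64062081 per library. For the members the recovered count behind a value ran from 2306 to 26374. Low counts were more often 4 than 3 or 5 in all 9 libraries (56 to 155 genes at 4, against 11 to 44 at 5), so 1 count is not known to be 1 read and no counting interval is given. Values are per gene and not divided by gene length, so an order of levels between genes also carries their length.

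The rule was passed by few genes. At any level, 281 genes had a highest value at most 25% above the lowest, which is 1.42% of the table, and 176 of these had a mean under 3000. Outside the 100 highest genes, 3556 genes had a mean of at least 3000, and the 104 members were 2.92% of them. The median ratio of highest to lowest value was 1.204 over the members and 1.80 over the other 3452 genes of that level. Of the 3556 genes, 816 (22.9%) had a ratio of at most 1.5 and 2296 (64.6%) a ratio of at most 2. The share within the 25% limit was not even along the range of levels: it was 3.14% of genes with a mean from 1000 to 3000, 4.28% from 3000 to 5000, 2.61% from 5000 to 10000, 1.29% from 10000 to 30000 and 0.448% above. Only 1 gene among the 100 highest met the ratio limit. This gene, Pgl_GLEAN_10026068, ranked 34th with a mean of 84601 and a ratio of 1.24.

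**Figure D1:**
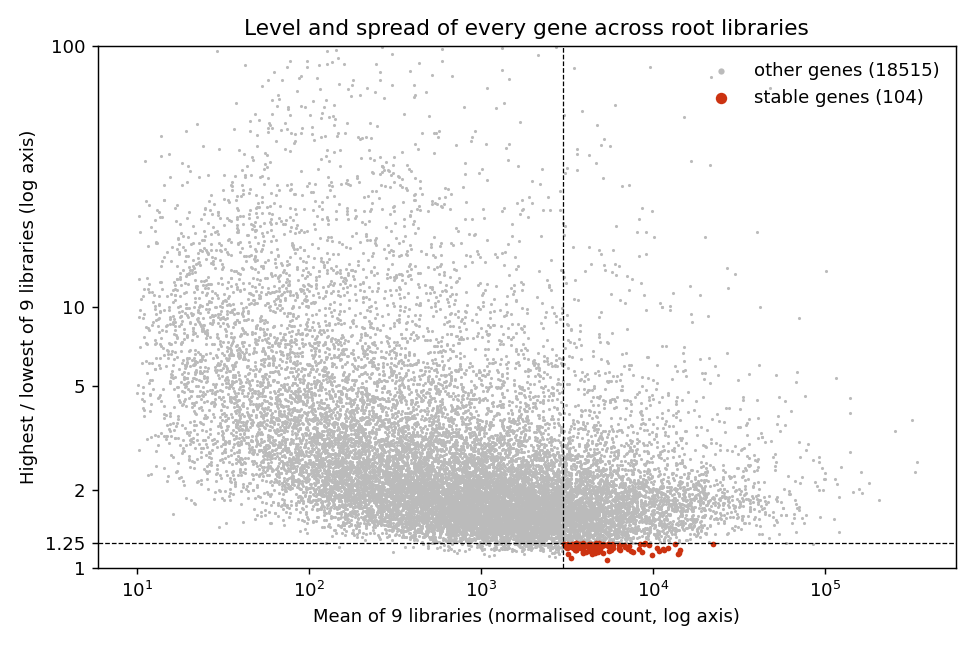
Each point is a gene, with its mean normalised count over 9 libraries on a log horizontal axis and the ratio of its highest to its lowest library on a log vertical axis; dashed lines mark a mean of 3000 and the ratio limit of 25% above the lowest. The 104 stable genes (red) fill the lower right corner between means of 3019 and 22105, 1135 genes with a library at 0 have no ratio and are not drawn, and 81 genes with a ratio over 100 lie beyond the axis.

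Most members lay toward the lower end of the permitted levels. Means from 3000 to 5000 were held by 63 members, means from 5000 to 10000 by 31 and higher means by 10. The lowest mean was 3019, the median 4536 and the highest 22105, which places the members between the 81.6th and 98.3th percentile of all genes. Together the 104 genes held 1.03% to 1.253% of the normalised counts of a library. The coefficient of variation (CV, the standard deviation over the mean of the 9 libraries) ran from 2.39% to 9.29% with a median of 6.32%. It was under 5% in 16 members, from 5% to 7% in 62 and higher in 26. Over the other genes of the same minimum level and above 0 in every library, the median CV was 19.3%.

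Pgl_GLEAN_10006328 had the least spread of all members. Its normalised counts were 5234, 5498 and 5508 in primary roots, 5215, 5587 and 5337 in crown roots and 5491, 5418 and 5352 in lateral roots. The mean was 5404 ± 129 (SD, n = 9), the CV 2.39% and the ratio of highest to lowest 1.07. Its root type means, 5414, 5380 and 5420 in primary, crown and lateral roots, differed by less than the SD within any of the types (156, 190 and 69.4).

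Pgl_GLEAN_10031427 followed, at a lower level. It had 3277, 3404 and 3160.5 in primary roots, 3330, 3256 and 3288 in crown roots and 3183, 3387 and 3461 in lateral roots. The mean was 3305 ± 100.4 (SD, n = 9), the CV 3.04% and the ratio 1.095. The libraries of the 3 root types overlapped, and the crown root values were the closest together (SD 37.4, n = 3).

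The other members among the 6 of lowest CV had a CV between 3.86% and 4.39%. Pgl_GLEAN_10027075 had 4434, 4571 and 4486 in primary, 4303, 4597 and 4634 in crown and 4704, 4581 and 4933 in lateral roots. All of its lateral root libraries were above all of its primary root libraries, although the type means were only 4497 ± 69.5 and 4739 ± 179 (SD, n = 3). Pgl_GLEAN_10025713 had 9475, 10005 and 9414 in primary, 10343, 9183 and 9664 in crown and 9869, 9647 and 10346 in lateral roots, and its types overlapped. It combined a CV of 4.14% with a mean of 9772. Pgl_GLEAN_10033563 had 4455, 4468 and 4482 in primary roots, the tightest set of these (SD 13.8, n = 3), with 4467, 4860 and 4471 in crown and 4309, 4459 and 4136 in lateral roots. Here crown root replicate 2 stood above the other 8 libraries, and the lowest values were in lateral root replicates 3 and 1. Pgl_GLEAN_10015435 had 10542, 10894.5 and 10911 in primary, 10749, 10796 and 11271 in crown and 11453.5, 10511 and 9812 in lateral roots. Its lateral root libraries took both the highest and the lowest place.

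**Figure D2:**
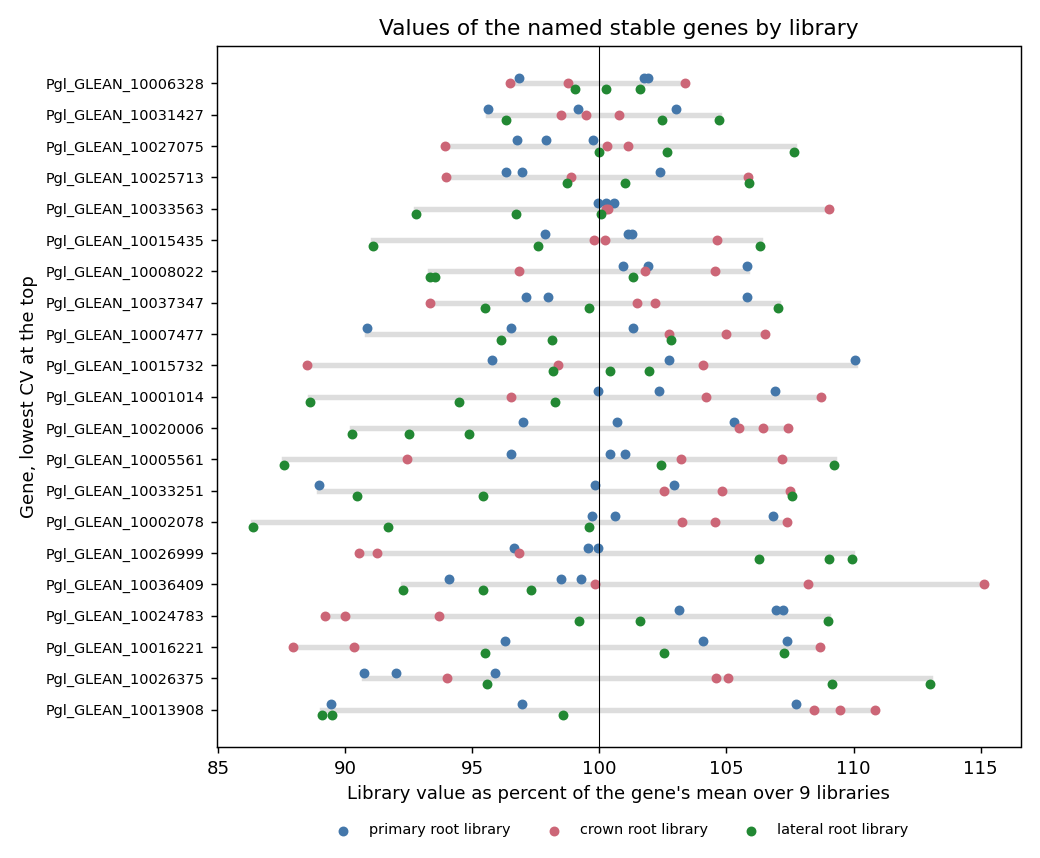
Each row is 1 of the 21 named stable genes and each point 1 library, as percent of the mean of that gene over the 9 libraries (horizontal axis), coloured by root type; the grey bar joins the lowest and the highest library. Pgl_GLEAN_10006328 at the top spans the narrowest range (ratio 1.07). All lateral root libraries lie above all crown root libraries in Pgl_GLEAN_10026999 and Pgl_GLEAN_10024783. They lie below them in Pgl_GLEAN_10033563, Pgl_GLEAN_10002078, Pgl_GLEAN_10036409, Pgl_GLEAN_10013908 and Pgl_GLEAN_10020006.

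The 10 members with a mean above 10000 had a median CV of 5.12%, against 6.53% for means from 5000 to 10000 and 6.34% below. The highest member, Pgl_GLEAN_10002078, had a CV of 6.96%. It had 22239, 23617 and 22038 in primary, 22826, 23739 and 23112 in crown and 22014, 20265 and 19097 in lateral roots. All lateral root libraries lay under all libraries of the other types, with means of 20458.5 ± 1468 against 22631.5 ± 859 and 23225 ± 467 (SD, n = 3). The next 3 members by level had smaller CVs. Pgl_GLEAN_10007477 had a mean of 14265 ± 711 and a CV of 4.98%, Pgl_GLEAN_10037347 a mean of 14166 ± 648 and a CV of 4.58%, and Pgl_GLEAN_10008022 a mean of 13993 ± 626 and a CV of 4.47% (SD, n = 9). In Pgl_GLEAN_10007477 the 3 crown root libraries (14975, 15193 and 14656) were above the 3 primary root libraries (13767, 12960 and 14451), while in the other members of these 3 all types overlapped.

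At the limits of the rule, members and non-members differed little. The 4 lowest members by level were Pgl_GLEAN_10015732 (mean 3019 ± 180), Pgl_GLEAN_10033251 (3109 ± 216), Pgl_GLEAN_10001014 (3110.3 ± 197) and Pgl_GLEAN_10016221 (3132 ± 242; SD, n = 9 each), with ratios from 1.21 to 1.24. Just under 3000 and within the ratio limit were Pgl_GLEAN_10021785, with a mean of 2983 and a ratio of 1.247, and Pgl_GLEAN_10025682, with a mean of 2953 and a ratio of 1.16. The members with the highest ratios were Pgl_GLEAN_10036409 at 1.2475, Pgl_GLEAN_10005561 at 1.247 and Pgl_GLEAN_10026375 at 1.245. Their highest library was crown root replicate 2, lateral root replicate 2 and lateral root replicate 3, and their lowest lateral root replicate 3, lateral root replicate 3 and primary root replicate 2. The nearest genes outside were Pgl_GLEAN_10020695, with a mean of 6509 and a ratio of 1.25104, and Pgl_GLEAN_10018342, with a mean of 44009 and a ratio of 1.25126.

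Small differences between root types remained within the members. These are bulk samples, in which fewer cells of a type and less RNA per cell cannot be told apart. The largest fold between 2 root type means of a member had a median of 1.07 and a maximum of 1.19, and the highest type mean was at most 5% above the lowest in 35 members and at most 10% in 72. On the log2 scale the absolute difference between type means had a median of 0.05 for lateral against primary, 0.05 for crown against primary and 0.06 for lateral against crown roots. These medians were 0.31, 0.27 and 0.40 over the 18619 genes above 0 in every library. Signed medians were close to 0, at -0.02 for lateral minus primary, 0.02 for crown minus primary and -0.02 for lateral minus crown roots, and the signs of the latter pair turned with equal totals and quantile normalisation, that of crown minus primary also with upper quartile scaling. The rule bounds these differences, so their small size is not a result.

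The libraries of 2 root types could still lie apart within these narrow limits. On the deposited scale, all 3 lateral root libraries were above all 3 primary root libraries in 11 members and below them in 9, against 20.5% and 17.4% of all genes. Crown root libraries were all above primary root libraries in 14 members and all below in 3, against 15.1% and 14.2% of all genes. Lateral root libraries were all above crown root libraries in 8 members and all below in 19, against 23.0% and 20.7% of all genes. In either direction, 20 members had lateral and primary root libraries apart (37.9% of all genes), 17 crown and primary (29.3%) and 27 lateral and crown (43.7%). In 62 members no pair of root types was apart, in 22 members 1 pair, in 18 members 2 pairs and in 2 members all 3 pairs. Over all genes, no pair was apart in 38.3%, 1 pair in 22.5%, 2 pairs in 29.3% and all 3 pairs in 9.92%. The rule used these contrasts, and nothing is read from the counts beside those shares.

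These last members, Pgl_GLEAN_10020006 and Pgl_GLEAN_10009296, ran in the same order from crown over primary to lateral roots in every library. Pgl_GLEAN_10020006 had 7664, 7593 and 7525 in crown, 6920, 7183 and 7511 in primary and 6767, 6439 and 6601 in lateral roots. Pgl_GLEAN_10009296, singled out after its values were seen, had 3866, 4240 and 3884 in crown, 3745, 3800 and 3734 in primary and 3593, 3409 and 3461 in lateral roots. In both, the crown and lateral root libraries did not overlap although no library was more than 25% above another.

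The largest differences between lateral and crown roots went both ways. Pgl_GLEAN_10026999 had 5844, 6046 and 5996 in lateral against 5325, 4978 and 5019 in crown roots, a log2 difference of 0.22, and its primary root values of 5475, 5495 and 5315 lay below all lateral ones and overlapped with the crown ones. Pgl_GLEAN_10024783 had 5001, 5122 and 5493 in lateral against 4536, 4497 and 4722 in crown roots, a log2 difference of 0.18, and its primary root values of 5392, 5405 and 5199 lay with the lateral ones. In Pgl_GLEAN_10013908 lateral roots were lower, with 3859, 3503 and 3488 against 4284, 4339 and 4245 in crown roots, a log2 difference of -0.25, and primary roots spread from 3501 to 4217. Pgl_GLEAN_10013908 also had the highest CV of the members, 9.29%. The log2 difference of Pgl_GLEAN_10020006 was -0.20.

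**Figure D3:**
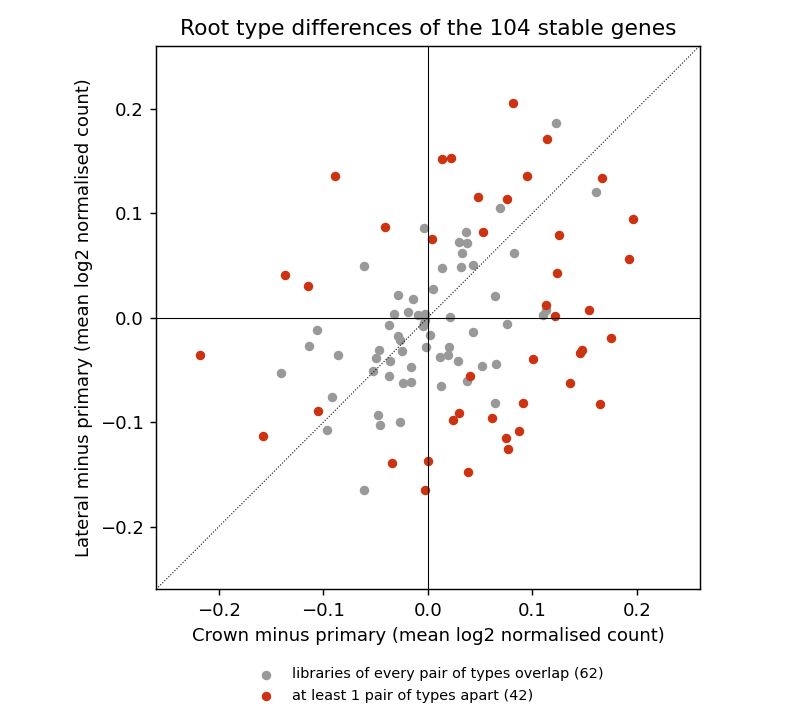
Each point is 1 of the 104 stable genes, with its crown minus primary (horizontal) and lateral minus primary (vertical) difference of mean log2 normalised counts; points under the dotted diagonal were lower in lateral than in crown roots. The 42 genes with at least 1 pair of root types apart (red) and the 62 with none (grey) all lie between -0.22 and 0.21.

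Some libraries supplied the extremes of the members more often than others. Crown root replicate 2 held the highest value of 30 members (28.8%), crown root replicate 1 of 17 and lateral root replicate 1 of 15, while primary root replicate 1, crown root replicate 3 and lateral root replicate 2 held it for 5, 4 and 4. The lowest value fell most often in lateral root replicate 3 (16 members, 15.4%), primary root replicate 1 (15, 14.4%) and lateral root replicate 1 (14, 13.5%). In the other 3452 genes of the level these libraries held it in 20.3%, 4.66% and 20.5%. By root type, 51 members (49.0%) peaked in a crown root library, 32 (30.8%) in a lateral and 21 (20.2%) in a primary root library. Among the other 3452 genes the crown root libraries held the highest value in 61.6%, lateral roots in 26.3% and primary roots in 12.2%. Crown root replicates 1 and 2 led there with 29.0% and 21.6%, and lateral root replicate 1 had 8.66%. Primary root replicate 1, crown root replicate 3 and lateral root replicate 2 had 3.42%, 10.9% and 6.69%. Within a root type, the median CV of the members over 3 libraries was 4.09% in primary, 5.39% in crown and 5.13% in lateral roots, against 8.97%, 14.7% and 11.3% in the other genes of the level.

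How far a gene chosen as steady in some libraries was steady in others was described by repeating the choice without 1 root type, so that the remaining type was not used in it. With primary roots left out, 214 genes met the rule over the 6 crown and lateral root libraries. The primary root mean of 207 of them (96.7%) was no more than 25% above or 20% below the mean of the 6 libraries, against 78.5% of the 3379 genes of the same minimum mean that were not chosen. With crown roots left out, 480 genes were chosen and 392 (81.7%) were within these bounds in crown roots, against 53.8% of 3035 not chosen. With lateral roots left out, 453 genes were chosen and 352 (77.7%) were within them in lateral roots, against 52.9% of 3083 not chosen. The median absolute log2 distance of the left-out type from the other libraries was 0.08, 0.16 and 0.18 for the chosen genes and 0.16, 0.29 and 0.30 for the others. A measure by single libraries asked that each left-out library be at most 25% above the highest and 20% below the lowest of the 6. For primary roots this held in 95.8% of chosen genes and 94.6% of those not chosen. The shares were 72.3% and 62.5% for crown roots, and 73.1% and 72.3% for lateral roots. On this measure chosen genes and others were thus nearly alike for primary and lateral roots. Its bounds are wider for genes with more spread among the 6. Genes are not independent replicates, and these shares were not tested.

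The stricter condition, that the highest of all 9 libraries be at most 25% above the lowest, held for 104 of the 214 genes (48.6%) chosen without primary roots, for 105 of the 480 (21.9%) chosen without crown roots and for 104 of the 453 (23.0%) chosen without lateral roots. A gene within that limit over 9 libraries is within it over any 6, so nearly all of these were the members (103, 104 and 104). The 3 shares thus follow from the number chosen and are not a separate result. The left-out type was higher than the mean of the 6 other libraries in 38.8% of the chosen genes for primary, 67.9% for crown and 35.3% for lateral roots. Among genes not chosen, these shares were 37.9%, 60.9% and 28.0%.

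Genes level in a pair of root types could be far from level in the remaining one. These examples are the extremes and were singled out after their values were seen. Pgl_GLEAN_10005623 lay between 6024 and 7108 in the 6 primary and lateral root libraries and had 2371, 2155 and 2114 in crown roots, 0.339 times the mean of the others. Pgl_GLEAN_10036111 lay between 5262.5 and 6466 in primary and crown roots and had 13316, 10584 and 12964 in lateral roots, 2.14 times the mean of the others. For primary roots the farthest gene was Pgl_GLEAN_10015050, with 10474, 12097 and 14032 against 14332 to 17518 in the other types, a fold of 0.755. Of the 480 genes chosen without crown roots, 1 was over 2-fold lower there, against 177 of the 3035 not chosen. Of the 453 chosen without lateral roots, 1 was over 2-fold higher there, against 94 of the 3083 not chosen.

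**Figure D4:**
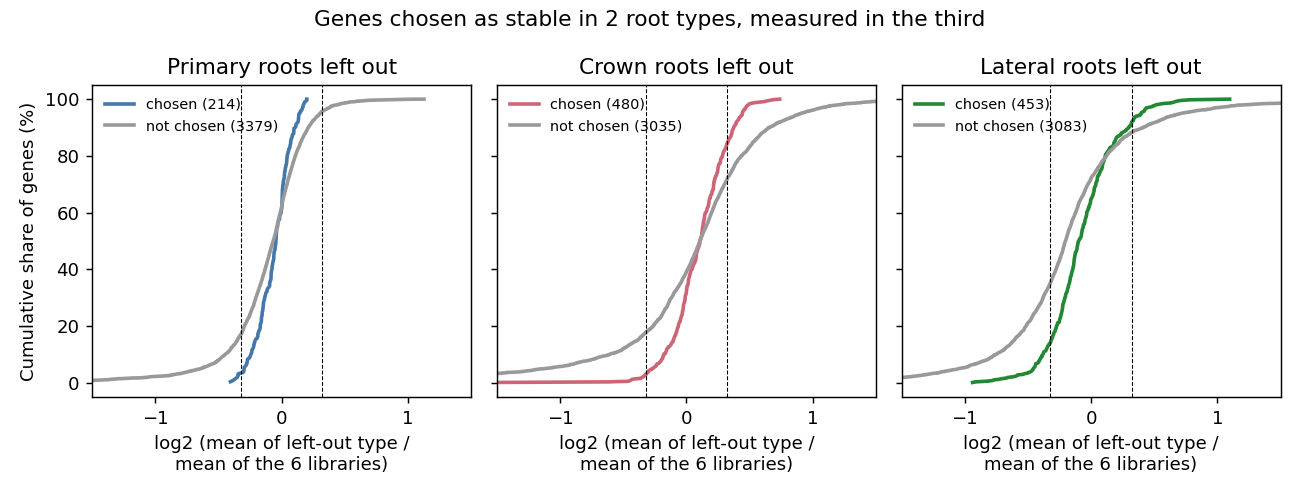
Each panel leaves out 1 root type and shows the cumulative share of genes (percent, vertical axis) by the log2 ratio of the mean of the left-out type to the mean of the 6 other libraries (horizontal axis, cut at the sides), for genes chosen as stable on those 6 libraries (coloured) and genes of the same minimum mean not chosen (grey); dashed lines mark 25% above and 20% below. Between the dashed lines lie 96.7% of the chosen genes for primary, 81.7% for crown and 77.7% for lateral roots.

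The choice was also repeated without 1 library at a time. Between 109 and 196 genes met the rule over 8 libraries, and the value of the left-out library was within the same bounds of their mean in 78.1% to 100% of these genes. The lowest shares were those of crown root replicate 1 (78.1% of 196 genes) and lateral root replicate 1 (85.2% of 183), and in the other 7 libraries the share was at least 93.3%. The same shares over genes not chosen ran from 46.3% in crown root replicate 1 to 88.3% in primary root replicate 3.

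Dividing a library by a single factor leaves the ratios between its genes as they are, so each member was also described by its pairwise stability M, the mean over the other 103 members of the SD across libraries of the log2 ratio to that member. M ran from 0.092 to 0.155 with a median of 0.121, and the lowest values belonged to Pgl_GLEAN_10006328 (0.092), Pgl_GLEAN_10033563 (0.0998) and Pgl_GLEAN_10031427 (0.1002). Every member was chosen for being level in these same libraries, so the rule bounds M and its small size is not a result. Lists chosen by the same rule on the 4 other scales described below had median M from 0.122 to 0.127. The median SD over the 5356 pairs of members was 0.122. It was under 0.05 in 29 pairs and over 0.2 in 35. The widest pair, Pgl_GLEAN_10013908 and Pgl_GLEAN_10024783, had ratios between 0.635 and 0.965, a spread of 1.52-fold.

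The closest pair was Pgl_GLEAN_10015803 and Pgl_GLEAN_10030394, with an SD of the log2 ratio of 0.0218, and the next pair had 0.027. Pgl_GLEAN_10015803 had 8168, 8474 and 8453 in primary, 9407, 8452 and 8210 in crown and 8820, 8812 and 8932 in lateral roots. Pgl_GLEAN_10030394 had 7554, 7967 and 8083 in primary, 8919, 8087 and 7896 in crown and 8490, 8336 and 8696 in lateral roots. Both were highest in crown root replicate 1, and their ratio stayed between 1.027 and 1.08 in all 9 libraries. They were singled out after their values were seen, and whether these genes share sequence was not examined here. Removing the least steady member step by step left the same pair last, preceded by Pgl_GLEAN_10016639, Pgl_GLEAN_10014461, Pgl_GLEAN_10025713, Pgl_GLEAN_10037696, Pgl_GLEAN_10017207 and Pgl_GLEAN_10006328. These 8 genes covered means from 3183 to 11574, and the mean M within them was 0.0628. Each step took out the least steady member, so this lower mean follows from the procedure.

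The geometric mean of all 104 members varied between 0.981 and 1.03 of its average over the libraries, a range of 1.049-fold with a CV of 1.41%. Since each member was chosen for being level in these same libraries, the levelness of their mean follows from the rule and was not measured on other samples. For the members of lowest M, the CV of the geometric mean did not fall evenly with their number: it was 2.39% for 1 member, 2.83% for 2, 1.75% for 3, 1.66% for 5, 1.69% for 10, 1.94% for 20 and 1.85% for 50. Crown root replicate 2 was highest and primary root replicate 1 lowest over all members.

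Steadiness was relative to the scale on which libraries were set. The deposited scale does not make totals equal: relative to their average, the normalised totals ran from 1.03 to 1.13 in crown roots, from 0.920 to 0.984 in primary roots and from 0.944 to 0.972 in lateral roots. After scaling to equal totals, 31 of the 104 members kept within the ratio limit, the median ratio was 1.305 and the widest 1.49. Quantile normalisation kept 58, upper quartile scaling 71 and TMM, a trimmed mean of log ratios between libraries, 102. With equal totals the geometric mean of the members ranged from 0.888 in crown root replicate 1 to 1.09 in primary root replicate 2. The median log2 difference of the members was then -0.16 for crown minus primary and 0.16 for lateral minus crown roots, near the shift of the median of all genes on that scale, -0.19 and 0.18. On equal totals, crown root libraries were all below primary root libraries in 47 members and all above in 0, against 24.6% and 8.17% of all genes on that scale. The members were chosen as level on the deposited scale, so a shift shared by the crown root libraries readily sets them apart. Nothing is read from these counts beside those shares.

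The rule gave a different list on each scale. Applied after scaling to equal totals it chose 132 genes, of which 31 were members (29.8% of the members and 23.5% of the 132). On quantile-normalised values it chose 136 with 58 shared (55.8% and 42.6%), on upper quartile scaling 103 with 71 shared (68.3% and 68.9%) and with TMM 111 with 102 shared (98.1% and 91.9%).

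**Figure D5:**
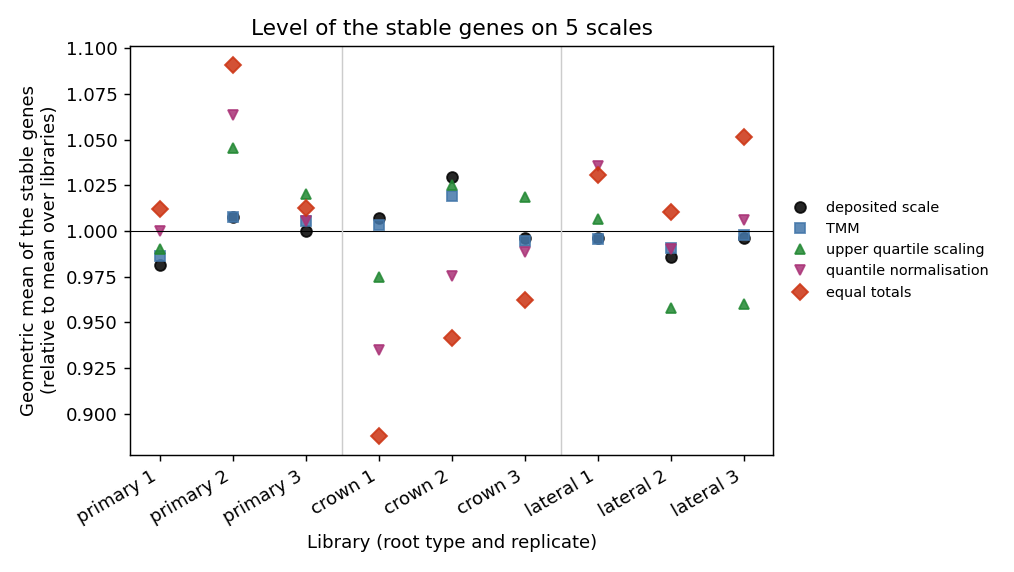
Geometric mean of the 104 stable genes in each library (horizontal axis), relative to its mean over the 9 libraries (vertical axis, starting near 0.88), on the deposited scale and 4 other scales. On the deposited scale and TMM the points stay between 0.981 and 1.03, while with equal totals crown root libraries fall to between 0.888 and 0.962 and primary root replicate 2 rises to 1.09.

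On all 5 scales 22 members kept within the ratio limit, a list formed after the values were seen. As a set they leaned toward crown roots on the deposited scale. The crown root mean log2 value exceeded the primary one in 20 of them and the lateral one in 18. Their median log2 difference was 0.076 for crown minus primary and -0.108 for lateral minus crown roots. In the 82 members lost on at least 1 scale these counts were 40 and 40, and the medians -0.0007 and 0.0009. Scaling to equal totals lowers crown root values relative to the other types, so it tends to keep members higher in crown roots as deposited. Among the 31 members kept on equal totals, the crown root value exceeded the primary one in 28 and the lateral one in 26. The lean thus follows at least in part from how the list was formed and is not a separate result. The lowest ratio on the least favourable scale, 1.154, belonged to Pgl_GLEAN_10017770, which had 5026, 4696 and 5226 in primary, 5363, 5282 and 4972 in crown and 5171, 5201 and 4791 in lateral roots (mean 5081 ± 227, SD, n = 9). It was followed by Pgl_GLEAN_10001848 at 1.18 (mean 6279 ± 327) and Pgl_GLEAN_10003132 at 1.19 (mean 3400 ± 177). In the latter genes the crown root libraries were all above both other types on the deposited scale. Pgl_GLEAN_10006328, the steadiest member as deposited, was not among the 22, with a ratio of 1.295 on equal totals, while Pgl_GLEAN_10033563 and Pgl_GLEAN_10007477 were. At the other end, Pgl_GLEAN_10015732 and Pgl_GLEAN_10005561 met the limit on the deposited scale only.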

How the data were processed

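RNA of 3 primary root tip, 3 crown root tip and 3 lateral root libraries was sequenced. The authors obtained read counts with the TOGGLE pipeline, in which they cleaned reads with CutAdapt (3.1), mapped them to ASM217483v2 with Hisat2 (2.0.1) and assembled transcripts with Stringtie (1.3.4). The authors then normalised the counts in the DIANE software by the DESeq2 method, keeping genes with a count sum of at least 90. The deposited values are a signal per gene, namely counts divided by 1 factor per library. The sources used here do not name the counting program, nor say whether libraries with the same replicate number share a day or plants. Each column was matched to its sample through the column name stated in that sample's labels, and 0 columns were not used.

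All members and lists were chosen with earlier results of these data known. The rule was applied in Python (3.11.15) with pandas (2.3.3) and numpy (2.4.6). Since it used all 9 values, no test between root types was run, and spread is given as the SD, the CV and the ratio of highest to lowest. Counts were recovered as whole multiples of 1 step per library (100% of values within 0.1 of a step). No count model was fitted, since 1 count is not known to be 1 read. TMM was computed on these counts from its published formula.

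Named genes followed a rule: the 6 members of lowest CV, the 4 of highest and 4 of lowest mean, the 3 of lowest M, the 3 of highest ratio, the 2 at each end of lateral minus crown roots, and the nearest 2 non-members at each limit. Genes named beyond it were chosen after their values were seen. Alternatives were other limits, scales and libraries left out. The procedure was checked on simulated data.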

Additional observations from a re-analysis of the deposited data

How the results depend on the processing

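The number of stable genes, 104, moved with the limits of the rule: it was 48 at a ratio of 1.2 and 197 at 1.3, and 165 with a minimum mean of 2000 and 41 with 5000. It was 22 where the ratio had to hold on all 5 scales, an alternative chosen after seeing the data. With the 100 highest genes kept, a CV of at most 8% in place of the ratio, or another scale, it stayed within 1.5 times. With a library left out the number ran from 109 to 196, the highest numbers being 196 when crown root replicate 1 was dropped and 183 when lateral root replicate 1 was.

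With the members fixed, equal totals raised the median ratio to 1.305 and the median CV to 8.41%, and kept 31 of the 104 members within the ratio limit, while quantile normalisation kept 58. With a library left out the median CV was 6.11% to 6.38% and the median M, tried so after seeing the data, 0.117 to 0.124.

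The median log2 difference was compared with the pooled SD between replicates of the log2 geometric mean of the members, 0.0186. It moved by more than this SD on several scales. For lateral minus primary roots it was -0.073 with upper quartile scaling and -0.034 with quantile normalisation, against -0.015 as deposited. The move with quantile normalisation only just passed the SD. For crown minus primary roots it was -0.16 with equal totals, -0.019 with upper quartile scaling and -0.085 with quantile normalisation, against 0.02 as deposited. For lateral minus crown roots it was 0.16, -0.038 and 0.065 on these scales, against -0.02, and the move with upper quartile scaling only just passed the SD. With a library left out the first of these medians lay between -0.025 and -0.0009, the second between 0.0046 and 0.033 and the third between -0.025 and 0.00039, above 0 only when crown root replicate 2 was dropped.

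Of the genes chosen without crown roots, 86.8% at a ratio of 1.2 and 88.0% with equal totals were no more than 25% above or 20% below the other libraries in crown roots, against 81.7%. Without lateral roots the share was 82.8% at a ratio of 1.2, against 77.7%. No paired analysis was possible because the results come from no test. Gene length, sequence sharing between members and sequencing batch were not analysed here.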

Other observations

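Below the minimum level, 142 genes with a mean from 1000 to 3000 (3.14% of that level) also had a highest value at most 25% above the lowest. So did 33 genes with a mean from 300 to 1000 (0.703%) and 1 gene with a mean from 100 to 300 (0.0317%). These genes extend the range of levels at which steady genes were measured in these libraries, at shares that fell toward lower levels. The highest of them, Pgl_GLEAN_10021785, had 2668, 2675 and 2957 in primary, 3117, 3328 and 3051 in crown and 3138, 3049 and 2866 in lateral roots, with the crown root libraries all above the primary root libraries.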
